A study of Mus musculus with 6 samples.

Results

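The nuclear-encoded respiratory chain genes were followed in mouse lung fibroblasts transduced with trSrebf1 or with a control vector. trSrebf1 is Srebf1c, a transcription factor of lipid synthesis, in its active form. A row of the count tables was a member when its symbol began with Nduf, Uqcr, Cox4 to Cox8 or Atp5, or was Sdha, Sdhb, Sdhc, Sdhd, Cyc1 or Cycs. This gave 88 members of 19865 rows, after Ndufa4l2 and the pseudogene Atp5c1-ps were left out of 90 matching symbols. By complex they were 42 of complex I, 4 of complex II, 9 of complex III, 16 of complex IV and 16 of complex V, with cytochrome c (Cycs) as 1 electron carrier. The members hold 10 genes that encode assembly or accessory proteins in place of subunits, namely 7 Ndufaf genes and Atp5sl for complex I, Cox7a2l for respiratory supercomplexes and Atp5s for ATP synthase. Ndufa4 is counted with complex IV, where its protein is now placed.

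Each group had 3 libraries. The fibroblasts of both groups came from the lungs of Col1a2-GFP transgenic C57BL/6 mice and were transduced by retrovirus with a vector marked by hLNGFR, a human receptor. They were placed in the airways of C57BL/6 mice on day 5 after 2 mg/kg of bleomycin, which injures lung tissue. Doxycycline, which switches trSrebf1 on, is recorded on day 7 for both groups. On day 10, live cells with the GFP reporter and hLNGFR but without CD31, CD45, CD146, EpCAM or Ter119 were sorted. PolyA RNA of 10000 cells per library was read by 3'SAGE-seq, which counts short tags from the 3' part of polyA RNA. Neither the age of the mice nor how many mice or cultures stand behind a group is stated in the labels, so the p-values gauge spread among libraries that may be technical. The control cells lack trSrebf1 but share the transduction, the transfer, the injury and the sort. The cells are a transferred, transduced population gated on Col1a2 promoter activity, and they do not stand for all fibroblasts of the host lung.

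The respiratory chain passes electrons from NADH (complex I) and succinate (complex II) to coenzyme Q, through complex III and cytochrome c to complex IV, where oxygen is reduced. Complexes I, III and IV pump protons, and complex V, the ATP synthase, uses the gradient to make ATP. Most subunits are encoded in the nucleus and imported, and a core set of hydrophobic subunits is encoded in mitochondrial DNA. In fibroblasts, as in other dividing cells, ATP comes from glycolysis and respiration in proportions that vary with oxygen and substrate.

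Libraries held 3675146 to 4688196 counts, of which 0.522% to 0.660% fell on the members. Srebf1, counted as a check of the labels, stood at 8.35, 5.13 and 7.75 CPM (the count relative to the scaled library size) in control and 28.5, 31.1 and 24.5 CPM in trSrebf1 libraries, although tags of the cell's own gene and of the transgene cannot be told apart. It rose by 1.98 on the log2 scale (SE 0.23, edgeR adjusted p = 2.88e-06). All 7 fibroblast markers were above the count filter, and their sum ranged from 28565 to 33522 CPM in control and from 20132 to 23023 CPM in trSrebf1 libraries. Of the 7, 6 were lower (edgeR adjusted p under 0.05), against 13.0% of all tested genes. The other, Col1a1, was not called (log2 fold change 0.12, edgeR adjusted p = 0.419). Markers of macrophages (4 of 7 with a row), endothelium (5 of 6) and erythroid cells (5 of 6) summed to at most 2.87 CPM in any library. Epithelial markers summed to 7.57 to 13.6 CPM in control and 6.82 to 20.5 CPM in trSrebf1. Pericyte and smooth muscle markers summed to 93.2 to 95.8 and 199 to 238 CPM, where Cspg4 and Des were higher and Myh11 lower. Ptprc and Adgre1, defining markers of leukocytes and macrophages, matched no row, nor did Marco, Vwf and Hba-a2 of these lists. In sorted bulk RNA, fewer cells of a type and less RNA per cell cannot be told apart, and the part of the marker shifts in the results was not tested.

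Most of the respiratory chain genes did not pass the test between the groups. Of the 88 members, 70 passed the filter on low counts, and of these 3 rose (Atp5sl, Cox6a2 and Sdha) and 7 fell, among them Ndufs3, Cox4i1, Cox7b, Atp5a1, Atp5c1 and Atp5j, in trSrebf1 fibroblasts (quasi-likelihood test of edgeR, p under 0.05 after Benjamini-Hochberg adjustment over 10194 genes). The called share was 14.3% of tested members, against 30.2% of all tested genes. It was 4.29% against 17.2% for higher genes and 10.0% against 13.0% for lower genes. DESeq2 and limma-voom each called 9 members.

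The median log2 fold change of trSrebf1 over control was -0.15 over the 70 members and -0.01 over all tested genes, with members from -1.98 to 1.28. It lay below 0 for 43 members and above 0 for 27. Control and trSrebf1 libraries did not overlap in 18 of 70 members, 6 higher and 12 lower, where 43.4% of all tested genes did not overlap (23.1% higher and 20.2% lower). Only 4 of the 10 called members, Atp5sl, Cox6a2, Cox7b and Atp5j, changed by more than 1 on the log2 scale.

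The called share also varied with the level of a gene. Of the tested members 60 averaged under 50 CPM, and 7 of them (11.7%) were called, against 24.9% of all tested genes under 50 CPM. Of the 10 members at 50 CPM or more 3 (30.0%) were called, against 49.7% of such genes. Among the 60 members that were not called, the 95% interval of the log2 fold change lay within -1 to 1 for 37 and reached past that range for 23, where these libraries leave a change of that size undetermined.

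**Figure D1:**
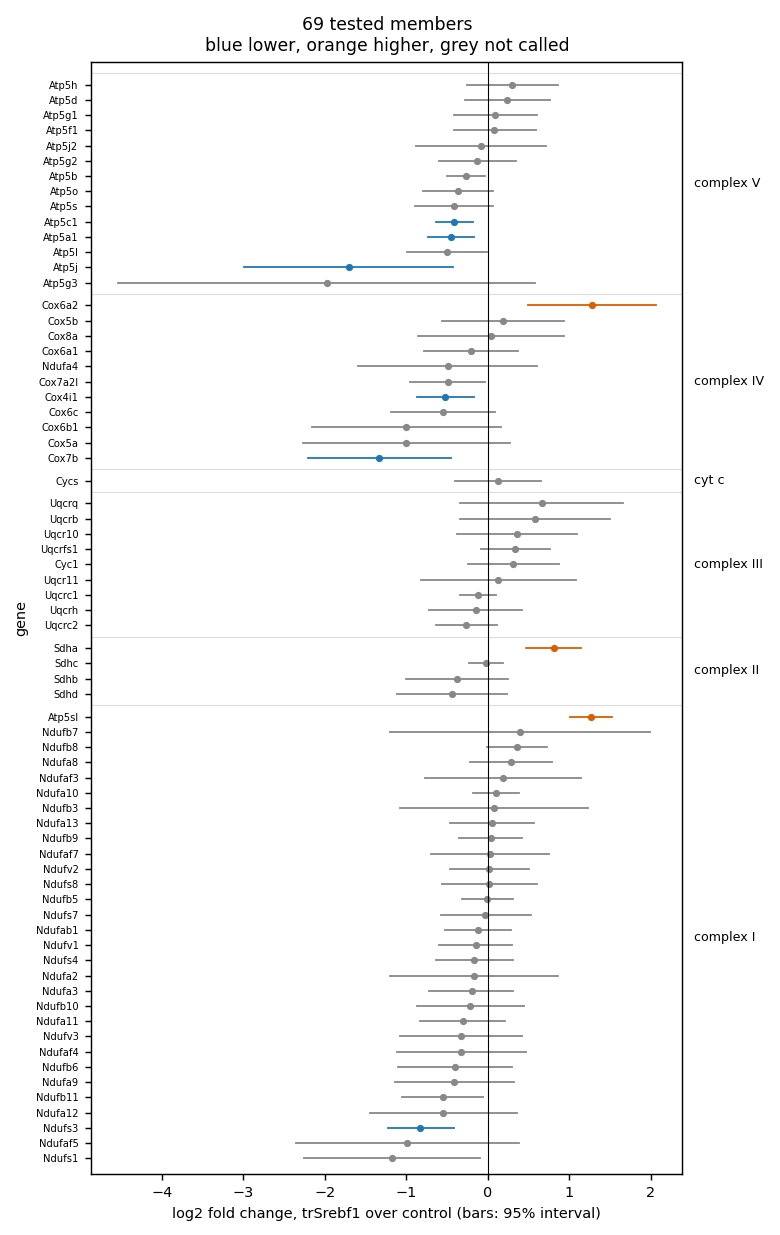
Log2 fold change of trSrebf1 over control (x axis) for 69 of the tested members (y axis), grouped by complex, with 95% intervals from the edgeR fit over 3 libraries per group. The 6 lower members drawn are blue, the 3 higher members orange and the 60 others grey, and the widest interval is that of Atp5g3, from -4.54 to 0.58.

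Promoter sequence was searched because nuclear respiratory genes are known to share binding sites for the factors NRF1 and GABP, and because trSrebf1 acts through sterol regulatory elements. Promoter windows of RefSeq (GRCm38.p6, 250 bases before to 50 after a gene's start) were found for 73 of the 88 members. The sterol regulatory element TCACNCCAC, sought on both strands like the motifs that follow, was in 0 of these 73 genes and in 1.44% of 27025 genes of the table. With so low a share over all genes, 0 of 73 does not show that the element is rarer among members. Other forms of the element were not searched. The NRF1 element GCATGCGC was in 13 of 73 (17.8%) and in 3.05% of all genes, and the ETS core CCGGAAG, which GABP binds, in 17 of 73 (23.3%) and in 9.93% of all genes. Of the 11 tested members with the NRF1 element 0 were called (1 at an unadjusted p under 0.05, and 0 by DESeq2 or limma-voom), and of the 14 tested members with the ETS core 0 rose and 2, Ndufs3 and Atp5j, fell (14.3%). Of tested members with a promoter window 10.5% were called, and of all tested genes 30.2%. A match of letters is a description and not a bound site.

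For each of these 2 genes that fell, 1 ETS match before a RefSeq start is shown in capitals with 10 bases on each side. The Ndufs3 window holds 2 ETS matches, and the other is not shown. For Cycs the 250 bases before the RefSeq start are shown with the NRF1 element in capitals. All stretches run 5′ to 3′ on the gene's strand. Cycs was chosen after its values were seen, as a member with the element and no call. The stretch of Ndufs3 is chr2:90904732-90904758 (minus strand), that of Atp5j chr16:84835021-84835047 (minus strand) and that of Cycs chr6:50566570-50566819 (minus strand). RefSeq and GENCODE place the starts differently. The RefSeq start of Ndufs3 lies 106 bases inside the GENCODE gene, and the match, 27 bases before it, lies in the 5′ UTR of Ndufs3 and in a UTR of Kbtbd4 on the opposite strand. Atp5j has 2 RefSeq windows. The window at its GENCODE start holds 0 ETS matches, and the match shown is 61 bases before a second start, 649 bases inside the gene, in an exon of non-coding Atp5j transcripts. For Cycs the RefSeq start lies 31 bases before that of GENCODE, and the match 60 bases before the RefSeq start.
Ndufs3: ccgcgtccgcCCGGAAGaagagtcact
Atp5j: gctgagggacCCGGAAGcacttaccct
Cycs: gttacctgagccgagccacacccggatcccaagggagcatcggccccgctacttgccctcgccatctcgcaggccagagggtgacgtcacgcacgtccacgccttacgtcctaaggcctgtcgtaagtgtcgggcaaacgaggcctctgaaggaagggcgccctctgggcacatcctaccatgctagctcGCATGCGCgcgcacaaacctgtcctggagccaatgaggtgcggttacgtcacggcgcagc

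In complex I, which oxidises NADH, 2 of 7 core subunits (28.6%) fell and 0 of 19 tested accessory subunits were called by edgeR. Of all tested genes 30.2% were called and 13.0% were lower. Ndufs3 (chromosome 2, 90894634 to 90904827, minus strand), a core subunit near the coenzyme Q site, stood at 23.2, 25.9 and 23.9 CPM in control and 12.6, 15.7 and 13.0 CPM in trSrebf1 libraries. The groups did not overlap, and every trSrebf1 library was below every control library. Ndufs3 fell by 0.83 on the log2 scale (SE 0.19, edgeR adjusted p = 0.00292), and its call held in all 15 alternative settings that were run (adjusted p from 0.00132 to 0.0180). Its exons overlap Kbtbd4 on the opposite strand over 88 bases, and Kbtbd4 was not called (log2 fold change 0.33, SE 0.32). The end of its transcript shares runs of bases with the annotated genes Gm12251 and Gm11927, so its values are uncertain to that extent.

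Among the core subunits that were not called, Ndufs1, the largest, had 2.61, 4.62 and 2.35 CPM in control and 1.5, 2.02 and 0.682 CPM in trSrebf1 (log2 fold change -1.18, SE 0.51, edgeR adjusted p = 0.0943). Its groups did not overlap, but it did not pass the threshold. Ndufs7, Ndufs8, Ndufv1 and Ndufv2, which hold iron-sulfur clusters or the NADH site, had log2 fold changes of -0.03, 0.02, -0.15 and 0.02, with 95% intervals inside -0.60 to 0.61. Whether their changes differ from each other was not tested.

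Of the 27 accessory subunits of complex I, 19 were tested and 0 were called by edgeR, against 30.2% of all tested genes. Among the 19, 1 had an unadjusted p under 0.05 (Ndufb11) and 0 were called by DESeq2 or limma-voom. Their log2 fold changes ran from -0.55 to 0.40. Ndufb8 was the accessory subunit whose groups did not overlap, at 21.4, 20.5 and 19.5 CPM in control and 28.7, 24.5 and 25.5 CPM in trSrebf1 (log2 fold change 0.36, SE 0.17, edgeR adjusted p = 0.137).

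Ndufa2 and Ndufa3, small accessory subunits, varied more within control than between the groups. Ndufa2 stood at 152, 394 and 353 CPM in control and 316, 254 and 230 CPM in trSrebf1. Ndufa3 stood at 64.2, 120 and 115 CPM in control and 105, 80.8 and 74.5 CPM in trSrebf1. For both genes control library 1 was the lowest of the 6 libraries, and the trSrebf1 values lay between it and the other control values. The log2 fold change of Ndufa2 was -0.17 (SE 0.39, edgeR adjusted p = 0.803), and without control library 1 it was -0.48 with an adjusted p of 0.00643. Over all settings it ran from -0.48 to 0.07, above 0 when control library 2 was left out.

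Assembly factors of complex I build the complex and are absent from the finished enzyme. Atp5sl (Dmac2 in the annotation, chromosome 7, 25619414 to 25625551, plus strand), which encodes a factor for the distal part of the membrane arm, stood at 81.7, 82.9 and 103 CPM in control and 206, 201 and 237 CPM in trSrebf1. All trSrebf1 libraries were above all control libraries. It rose 2.41-fold, a log2 fold change of 1.27 (SE 0.12, edgeR adjusted p = 4.35e-07), and the call held in all 15 alternative settings (log2 fold change 1.18 to 1.37). No exon overlap with another gene was found for it. Of the 7 Ndufaf genes 4 were tested and 0 were called by edgeR, against 30.2% of all tested genes. DESeq2 and limma-voom also called 0 of the 4, and 0 had an unadjusted p under 0.05. Their log2 fold changes ran from -0.99 (Ndufaf5) to 0.19 (Ndufaf3).

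**Figure D2:**
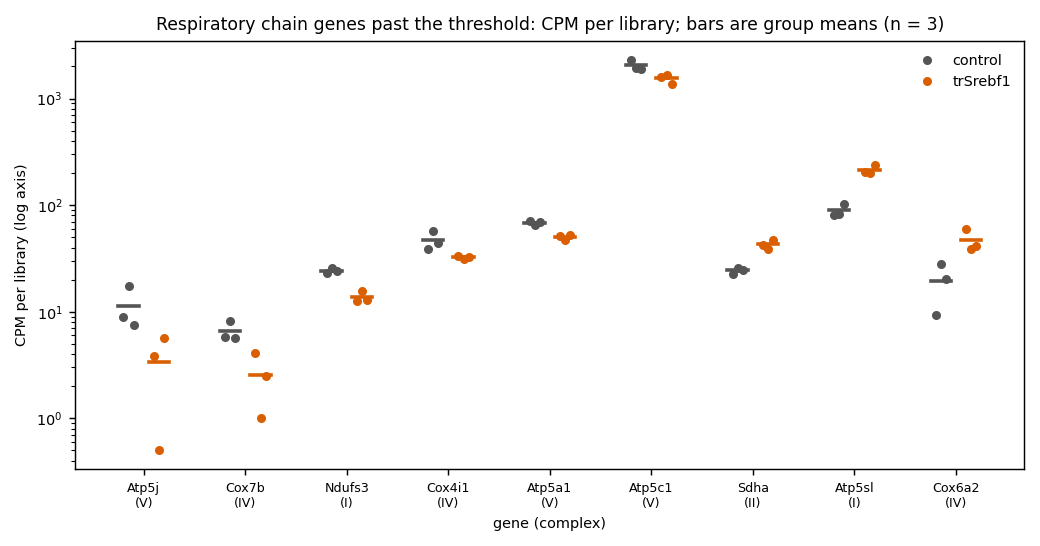
CPM per library (y axis, log scale) of 9 of the members past the threshold (x axis, complex in brackets), with control in grey, trSrebf1 in orange and bars at the mean of 3 libraries. The groups do not overlap in any of the 9, and Atp5j and Cox7b show the widest spread among trSrebf1 libraries.

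In complex II, succinate dehydrogenase, the flavoprotein gene rose and the other subunits were not called. Sdha (chromosome 13, 74322254 to 74350280, minus strand), which oxidises succinate, stood at 22.4, 25.9 and 24.9 CPM in control and 42.2, 38.9 and 47.5 CPM in trSrebf1. Its groups did not overlap. It rose 1.75-fold, a log2 fold change of 0.81 (SE 0.16, edgeR adjusted p = 8.17e-04), in all 15 alternative settings as well (log2 fold change 0.73 to 0.88).

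Sdhb, the iron-sulfur subunit that joins Sdha in the catalytic head, had 8.61, 10.3 and 9.86 CPM in control and 4.92, 10.6 and 6.82 CPM in trSrebf1, with overlapping groups (log2 fold change -0.38, 95% interval -1.0 to 0.25). Of the membrane anchors, Sdhc had 552, 548 and 583 CPM in control and 552, 583 and 520 CPM in trSrebf1, and its interval of -0.23 to 0.19 was among the narrowest. Sdhd had 9.65, 5.90 and 5.40 CPM and 5.99, 4.54 and 4.77 CPM (log2 fold change -0.44, 95% interval -1.12 to 0.24). Sdhc gave 93.2% of the summed CPM of complex II in control. The sum was 602 ± 18.3 and 607 ± 29.1 CPM (SD, n = 3 each), while without Sdhc it was 41.0 ± 1.01 and 55.4 ± 3.23 CPM. The rise of the reduced sum came from Sdha (means of 24.4 and 42.8 CPM), as the means of Sdhb and Sdhd were lower in trSrebf1.

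In complex III, which passes electrons from coenzyme Q to cytochrome c, 0 of 9 tested subunits were called by edgeR, against 30.2% of all tested genes. DESeq2 and limma-voom also called 0 of the 9, and 0 had an unadjusted p under 0.05. The median log2 fold change was 0.31 over the 9 subunits, and 6 lay above 0. The redox subunits had values of 0.31 for Cyc1 (cytochrome c1, SE 0.26) and 0.34 for Uqcrfs1 (the Rieske iron-sulfur protein, SE 0.20). Uqcrfs1 stood at 17.5, 19.8 and 13.4 CPM in control and 20.5, 23.0 and 20.5 CPM in trSrebf1, where the groups did not overlap (edgeR adjusted p = 0.231).

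The core protein genes lay below 0. Uqcrc1 had 2232, 1761 and 1981 CPM in control and 1724, 1969 and 1804 CPM in trSrebf1 (log2 fold change -0.12, 95% interval -0.34 to 0.10). Uqcrc2 had 34.7, 24.6 and 34.0 CPM and 27.8, 25.5 and 24.3 CPM (log2 fold change -0.27, 95% interval -0.64 to 0.11). Neither pair of groups was separate. The small subunits Uqcrb, Uqcrh, Uqcrq, Uqcr10 and Uqcr11 ran from -0.15 to 0.66, with 4 of 5 intervals reaching past 1 in size. Uqcrc1 held 95.6% of the complex III sum in control, so that sum describes 1 gene. Cycs, the carrier between complexes III and IV, had 10.2, 8.99 and 8.22 CPM in control and 8.77, 11.1 and 10.0 CPM in trSrebf1 (log2 fold change 0.12, 95% interval -0.40 to 0.65).

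In complex IV, cytochrome c oxidase, Cox4i1 and Cox7b fell and the muscle isoform gene Cox6a2 rose. These were 3 of 10 tested subunits (30.0%), near the 30.2% called over all tested genes. Cox4i1, the ubiquitous form of the largest nuclear-encoded subunit, stood at 38.6, 57.0 and 44.4 CPM in control and 33.4, 31.3 and 32.7 CPM in trSrebf1. All trSrebf1 libraries were below the lowest control library. It fell by 0.52 on the log2 scale (SE 0.17, edgeR adjusted p = 0.0246), a call lost without control library 2 (adjusted p = 0.165) and without trSrebf1 library 1 (0.0590), 2 (0.0680) or 3 (0.0597), in a range of 0.00704 to 0.165. Its exons overlap those of Emc8 on the opposite strand over 154 bases, and Emc8 itself was not called (log2 fold change -0.19). The hypoxia-linked form Cox4i2 had 1 count in 1 control library and 0 in the other 5.

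Cox7b (chromosome X, 106015700 to 106022450, plus strand), a small subunit, stood at 5.74, 8.22 and 5.63 CPM in control and 4.07, 1.01 and 2.5 CPM in trSrebf1. The groups did not overlap, and trSrebf1 library 2 was lowest. It fell by 1.33 (SE 0.42, edgeR adjusted p = 0.0213), and the call was lost without control library 2 (adjusted p = 0.101), trSrebf1 library 2 (0.0790) or trSrebf1 library 3 (0.0550), in a range of 0.00740 to 0.101.

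Cox6a2 (chromosome 7, 128205435 to 128206387, minus strand), the heart and skeletal muscle isoform, stood at 9.39, 28.0 and 20.4 CPM in control and 60.1, 38.6 and 41.4 CPM in trSrebf1. Each trSrebf1 library was above each control library. It rose 2.42-fold, a log2 fold change of 1.28 (SE 0.34, edgeR adjusted p = 0.0214). The call was lost without control library 3 (adjusted p = 0.0532), trSrebf1 library 1 (0.0583) or trSrebf1 library 3 (0.0677) and with the replicate block (0.106), in a range of 3.27e-10 to 0.106. Its exons overlap Itgad on the opposite strand over 70 bases, a gene that matched no row. Its ubiquitous counterpart Cox6a1 had 12.5, 24.1 and 27.9 CPM in control and 19.3, 23.2 and 13.9 CPM in trSrebf1 (log2 fold change -0.21, SE 0.27). Muscle markers (Ckm, Myh7, Actc1 and Tnnt2, of 6 on the list) summed to 1.54 to 3.99 CPM in control and 3.0 to 5.30 CPM in trSrebf1, none of them above the count filter, and their part in the result was not tested.

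The other subunits of complex IV were not called. Cox7a2l, the supercomplex factor, had 16.4, 15.1 and 18.3 CPM in control and 11.1, 11.1 and 13.2 CPM in trSrebf1, groups that did not overlap (log2 fold change -0.49, SE 0.21, edgeR adjusted p = 0.0953). It passed the threshold with upper-quartile factors (adjusted p = 0.0485). Cox6b1, which faces the intermembrane space, had 4.17, 6.68 and 3.76 CPM and 4.92, 0.505 and 1.59 CPM (log2 fold change -1.0, SE 0.54), and passed the threshold without trSrebf1 library 1 (log2 fold change -2.14, adjusted p = 0.0131). Cox8a had 11.2, 31.3 and 37.8 CPM in control and 30.8, 28.5 and 23.4 CPM in trSrebf1, with control library 1 below all other libraries. The isoform genes Cox6b2 and Cox7a1, known from testis and muscle, had 5 and 2 counts over all 6 libraries. Cox7a2, which is not one of the tissue isoforms, had 3 counts in all, and 3 counts in a library equal 0.642 to 0.783 CPM here. How many tags each gene can yield is not known here. A count near 0 therefore does not show that a gene was silent, and CPM values of different genes are not directly comparable.

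In complex V, the ATP synthase, subunits of the catalytic F1 part and of a stalk fell, and 0 rose. The called subunits were 3 of 13 tested (23.1%), against 30.2% of all tested genes called and 13.0% lower. Atp5c1 (chromosome 2, 10056016 to 10080510, minus strand), the gamma subunit that turns inside F1, stood at 2289, 1955 and 1897 CPM in control and 1610, 1659 and 1360 CPM in trSrebf1. The groups did not overlap. It fell by 0.41 on the log2 scale (SE 0.11, edgeR adjusted p = 0.00817), a call lost without trSrebf1 library 3 (adjusted p = 0.0746, range 8.94e-04 to 0.0746). The last 300 bases of its transcripts share runs of 30 bases with 3 other annotated genes, Gm8722, Atp5c1-ps and Gm14794, so tags may have been split or dropped. Atp5c1-ps itself had 2 to 9 counts in a library.

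Atp5a1, the alpha subunit, stood at 71.2, 64.7 and 69.9 CPM in control and 51.6, 47.0 and 52.0 CPM in trSrebf1, again without overlap. It fell by 0.45 (SE 0.14, edgeR adjusted p = 0.0167), and the call was lost without control library 3 (adjusted p = 0.0502) or trSrebf1 library 2 (0.0597), in a range of 0.00616 to 0.0597. Its exons overlap Haus1, a gene with 5 to 9 counts a library, on the opposite strand over 129 bases. Atp5b, the catalytic beta subunit, had 224, 201 and 187 CPM in control and 179, 170 and 160 CPM in trSrebf1. All its trSrebf1 libraries were lower, but it did not pass the threshold (log2 fold change -0.27, SE 0.11, edgeR adjusted p = 0.0785). It passed with upper-quartile factors (0.0274) and total counts (0.0219), in a range of 0.0219 to 0.247.

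Atp5j (chromosome 16, 84827866 to 84835625, minus strand), coupling factor 6 of the peripheral stalk, stood at 8.87, 17.5 and 7.51 CPM in control and 3.85, 0.505 and 5.68 CPM in trSrebf1. The groups did not overlap, and trSrebf1 library 2 was far below the other libraries. It fell by 1.71 (SE 0.57, edgeR adjusted p = 0.0478), the weakest of the 10 calls. The call was lost with total counts (adjusted p = 0.0517), DESeq2 (0.125), limma-voom (0.0518) and the replicate block (0.193). It was also lost without control library 1 (0.0774), control library 2 (0.128, log2 fold change -1.26) or trSrebf1 library 1 (0.141), in a range of 6.50e-06 to 0.193. Atp5j shares 397 bases of exon with Gabpa on the opposite strand, which encodes a GABP subunit and was not called (log2 fold change 0.13, SE 0.34). The end of its own transcripts also shares runs of bases with the annotated gene Gm11966, so the values of Atp5j are uncertain to that extent.

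The genes of the proton-carrying c ring encode the same mature protein. Atp5g1 and Atp5g2 had log2 fold changes of 0.09 and -0.13 (95% intervals -0.41 to 0.60 and -0.60 to 0.35). Atp5g3 had 10.7, 22.6 and 3.99 CPM in control and 4.71, 0 and 4.32 CPM in trSrebf1, a log2 fold change of -1.98 with an interval of -4.54 to 0.58. Library 2 of trSrebf1 held 0 counts of Atp5g3, which allows up to 0.757 CPM by counting error alone.

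The summed CPM of the 15 complex V subunits was 2719, 2429 and 2329 in control and 1999, 2010 and 1695 in trSrebf1, with 82.1% of it from Atp5c1 in control. Without Atp5c1 the sum was 445 ± 24.7 and 358 ± 27.1 CPM (SD, n = 3 each), so the groups differed in the same direction with and without that gene. The largest part of this reduced sum was Atp5b (204 and 170 CPM), which was not called. Of the 12 tested subunits other than Atp5c1, 8 lay below 0 and 4 above 0. For complex I subunits the sum was 833 ± 205 CPM in control and 763 ± 53.6 CPM in trSrebf1, for complex III 2081 ± 227 and 1927 ± 128 CPM, and for complex IV 162 ± 50.3 and 157 ± 25.1 CPM. These 3 differences were smaller than the SD of the control libraries. On the log2 scale the complex I difference was -0.13, but -0.31 without control library 1 and 0.01 without control library 2. That of complex IV was -0.05, but -0.27 and 0.15 without those libraries. That of complex III was -0.11, and ran from -0.19 to -0.03 with single libraries left out. No test was made of sums over the members.

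**Figure D3:**
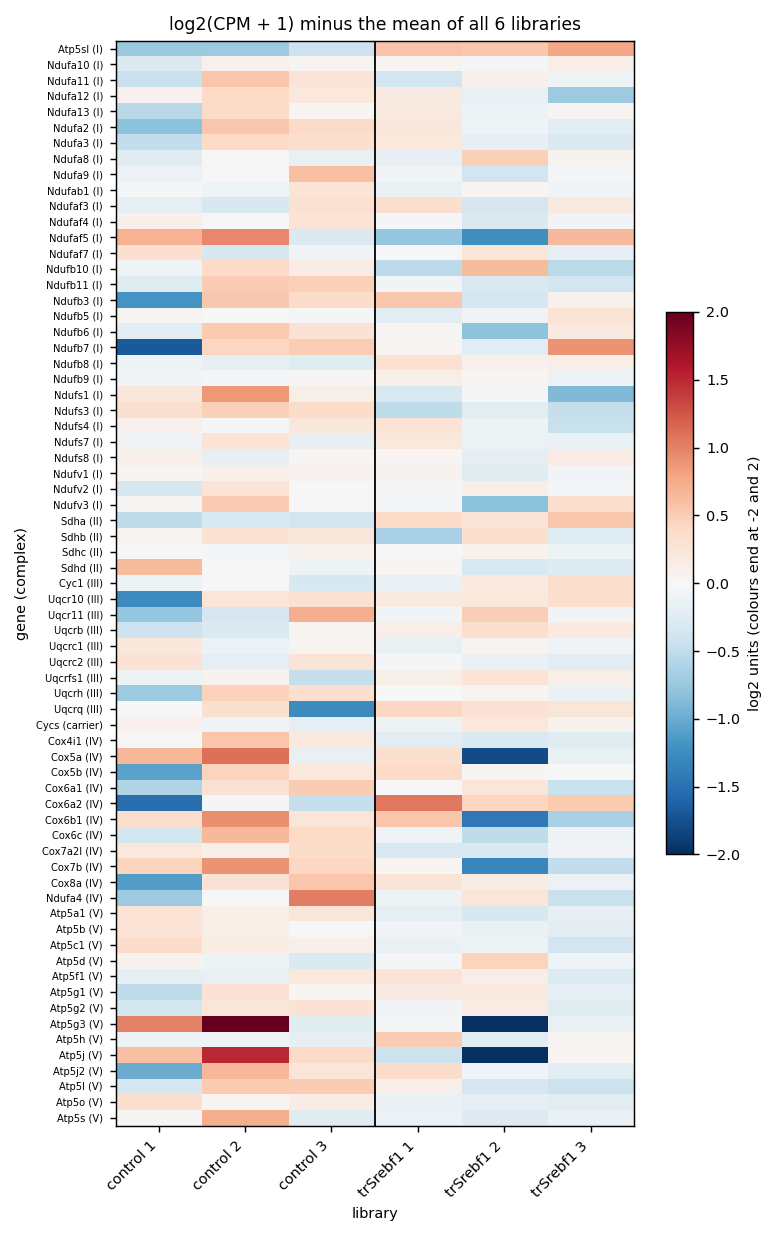
Deviation of log2(CPM + 1) from the mean of the 6 libraries (colour) for 69 of the tested members (rows, complex in brackets) in each library (columns, control left of the line). Atp5sl, Sdha and Ndufs3 change colour at the line, whereas Uqcr10, Cox8a, Cox5b and Ndufb7 are low mainly in control library 1 and Cox5a, Cox6b1, Cox7b, Atp5g3 and Atp5j mainly in trSrebf1 library 2.

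Much of the variation among members lay within the groups. Control library 1 was the lowest control library for 36 of 70 members (51.4%), against 35.7% of all tested genes. Its median log2 ratio to the mean of the other control libraries, with 1 CPM added, was -0.23 over members and -0.00 over all tested genes. The ratio was lower in short transcripts, at -0.86 in the 29 members whose annotated coding transcripts have a median length under 700 bases and at -0.12 in the other 41. Over the 592 tested genes of any kind that are as short it was -0.14. Across the 70 members the Spearman correlation of length with this ratio was 0.46, and across 9182 tested genes with a length it was 0.04. These are descriptions of 1 library, over genes that share it. Uqcr10, for example, stood at 3.13 CPM in control library 1 and at 10.3 to 11.6 CPM in the 5 other libraries. The length is a median over annotated coding transcripts, so a gene with a longer transcript can count as short. Uqcrc1 had a median of 533 and a longest transcript of 1653 bases, and Ndufs1 had 651 and 2661 bases.

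**Figure D4:**
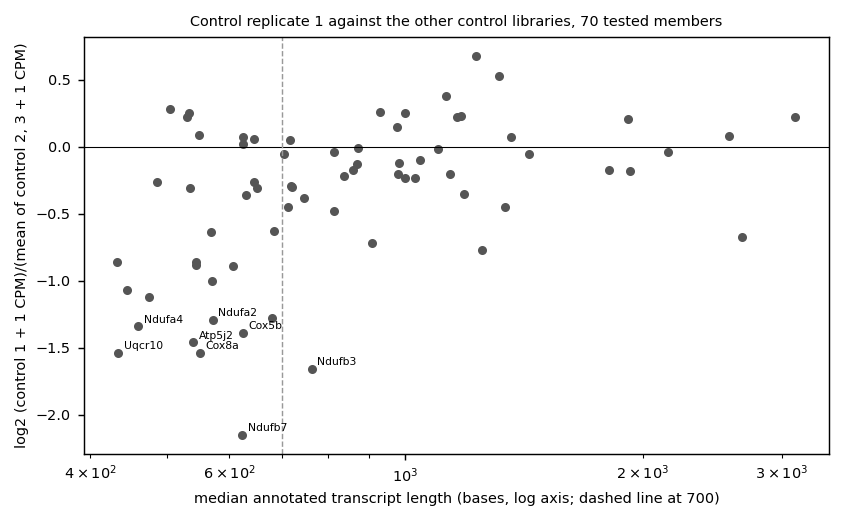
Log2 ratio of control library 1 to the mean of control libraries 2 and 3, each with 1 CPM added (y axis), against the median length of the annotated coding transcripts (x axis, log scale) for the 70 tested members. The members left of the dashed line at 700 bases have a median ratio of -0.86 and those right of it -0.12.

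The count of lower members moved with single libraries. It was 7 with all libraries, 10 without control library 1, 3 without control library 2 and 4 without trSrebf1 library 2. Without control library 1, 5 of the 7 (Ndufs3, Cox4i1, Cox7b, Atp5a1 and Atp5c1) stayed called and Ndufa2, Ndufa3, Ndufb11, Atp5l and Cox6c were added. The 3 that stayed without control library 2 were Ndufs3, Atp5a1 and Atp5c1. Without trSrebf1 library 2 they were Ndufs3, Atp5c1 and Atp5j, with Ndufb10 added. Of the 10 called members, Atp5sl, Sdha and Ndufs3 were called in all 15 alternative settings.

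The 18 members under the count filter were mostly short, 14 of 18 having a median transcript length under 700 bases against 29 of the 70 tested. They were Atp5e, Atp5k, Cox4i2, Cox6b2, Cox7a1, Cox7a2, Cox7c, Ndufa1, Ndufa5, Ndufa6, Ndufa7, Ndufaf1, Ndufaf2, Ndufaf6, Ndufb2, Ndufc2, Ndufs5 and Ndufs6, and 7 of them had 0 counts in 3 or more libraries. Such counts do not show that these genes were silent. Across all 88 members the Spearman correlation of transcript length and mean CPM was 0.28, a description over genes of the same libraries. Ndufb2 had 4, 7 and 1 counts in control and 11, 11 and 18 in trSrebf1, and was called higher with no filter on low counts and without control library 2.

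The wider respiratory pathway was described with lists of assembly factors, carriers, cofactor enzymes and regulators. The called share of each list stands beside the 30.2% called over all tested genes. For the assembly factors of complexes I, II and III outside the member rule, 0 of 5, 0 of 2 and 0 of 3 tested genes were called by edgeR, DESeq2 or limma-voom, with 0, 0 and 1 at an unadjusted p under 0.05. Among 17 tested complex IV assembly genes 1 rose and 0 fell (5.88% called, median log2 fold change 0.34). This was Surf1, needed for the heme-bearing core of the enzyme, at 2.61, 2.82 and 2.35 CPM in control and 6.42, 5.55 and 5.23 CPM in trSrebf1 (log2 fold change 1.14, SE 0.35, edgeR adjusted p = 0.0197). The call of Surf1 was lost with DESeq2 (0.0631), without control library 3 (0.0709) and without trSrebf1 library 1 (0.0766), in a range of 0.0159 to 0.0766.

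Of 6 tested genes that assemble, regulate or supply the ATP synthase 1 rose and 3 fell (66.7% called, against 30.2% of all tested genes and 49.7% of those at 50 CPM or more). Atpaf2, a chaperone of the F1 alpha subunit, stood at 43.8, 33.1 and 50.5 CPM in control and 115, 98.7 and 111 CPM in trSrebf1, and rose by 1.35 (SE 0.15, edgeR adjusted p = 2.69e-06). The carriers that exchange ADP for ATP fell. Slc25a4 stood at 355, 323 and 286 CPM and 202, 187 and 183 CPM (log2 fold change -0.75, SE 0.11, edgeR adjusted p = 4.63e-05), and Slc25a5 at 12.0, 11.8 and 8.22 CPM and 3.0, 5.30 and 4.09 CPM (log2 fold change -1.37, SE 0.31). The phosphate carrier Slc25a3 fell by 0.56 (SE 0.16). These 4 calls held in all 15 alternative settings, and the groups did not overlap in any of them.

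**Figure D5:**
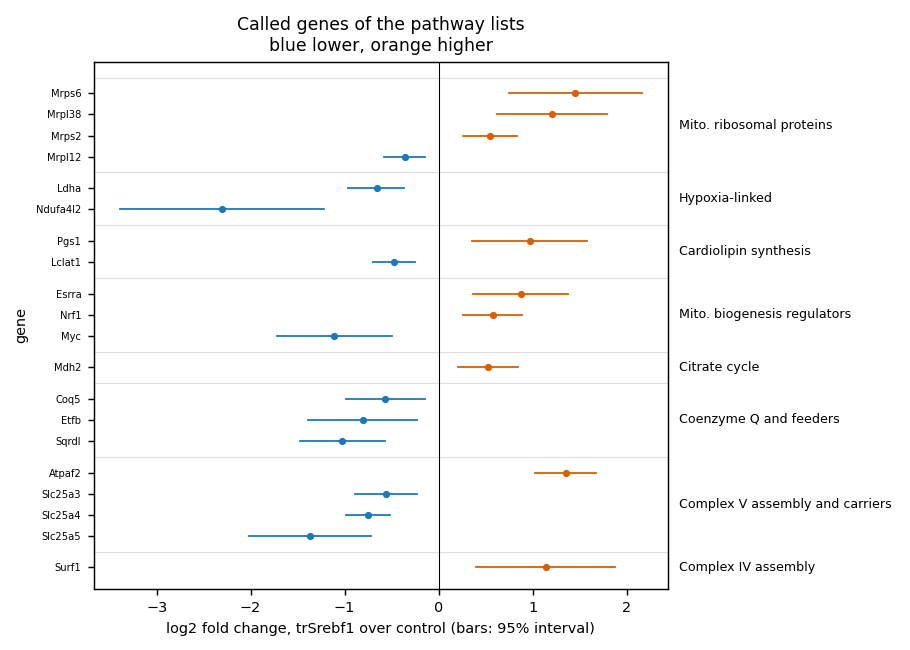
Log2 fold change of trSrebf1 over control (x axis) with 95% intervals for the called genes of the pathway lists, at most 4 per list (y axis, grouped by list). Orange genes were higher and blue genes lower, and the 3 carrier genes of complex V lie left of 0 while Atpaf2 lies right of it.

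Of 14 tested genes for coenzyme Q synthesis and for enzymes that feed it, 3 fell and 0 rose (21.4% called, median -0.24). Sqrdl, the sulfide oxidising enzyme, fell by 1.03 (SE 0.21), from 23.5, 18.7 and 27.5 CPM to 12.6, 11.4 and 10.2 CPM. Etfb, which carries electrons from fatty acid oxidation, fell by 0.81 (SE 0.27), and Coq5, a methyltransferase of coenzyme Q synthesis, by 0.57 (SE 0.20). The call of Etfb was lost in 8 of 15 settings, namely no filter on low counts (adjusted p = 0.0519), DESeq2 (0.0736), the replicate block (0.0505) and without control library 1 (0.0677), 2 (0.0517) or 3 (0.0877) or trSrebf1 library 1 (0.141) or 3 (0.0523). The call of Coq5 was lost in 7, namely no filter on low counts (0.0594), DESeq2 (0.0755), the replicate block (0.0510) and without control library 1 (0.0771) or 2 (0.116) or trSrebf1 library 2 (0.108) or 3 (0.139).

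Of 13 citrate cycle genes 1 rose and 0 fell (7.69% called). Mdh2, malate dehydrogenase, rose by 0.52 (SE 0.15), a call lost without control library 3 (adjusted p = 0.0753). Of 11 tested regulators of mitochondrial biogenesis 2 rose and 1 fell (27.3% called). Nrf1 stood at 35.7, 33.1 and 37.6 CPM in control and 58.4, 47.2 and 53.0 CPM in trSrebf1 (log2 fold change 0.58, SE 0.15, edgeR adjusted p = 0.00720). Esrra, a nuclear receptor that acts on respiratory genes, rose by 0.88 (SE 0.24), a call lost without trSrebf1 library 1 (0.0573), and Myc fell by 1.11 (SE 0.29).

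Cardiolipin is the lipid of the inner membrane that binds the respiratory complexes. Of 8 genes for its synthesis and remodelling 1 rose and 1 fell (25% called). Pgs1, which makes the phosphatidylglycerol precursor, rose by 0.97 (SE 0.29), a call lost without control library 2 (adjusted p = 0.0675) or 3 (0.0682) and without trSrebf1 library 1 (0.0600) or 2 (0.0670). Lclat1, an acyltransferase, fell by 0.47 (SE 0.11). Of 8 hypoxia-linked genes 2 fell and 0 rose (25% called). Ndufa4l2, a paralogue of Ndufa4 induced by hypoxia, stood at 3.65, 4.88 and 7.75 CPM in control and 0.856, 2.02 and 0.455 CPM in trSrebf1 (log2 fold change -2.30, SE 0.51, edgeR adjusted p = 0.00211). Ldha, lactate dehydrogenase, fell by 0.66 (SE 0.14).

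Mitochondrial ribosomal proteins, which make the subunits encoded in mitochondrial DNA, had 5 of 62 tested genes higher and 2 lower, 11.3% in all against 30.2% of all tested genes, with a median log2 fold change of -0.00. Mrps6, Mrpl38 and Mrps2 rose by 1.45 (SE 0.33), 1.21 (SE 0.28) and 0.55 (SE 0.13), and Mrpl12 fell by 0.36 (SE 0.10), a call lost without trSrebf1 library 1 (adjusted p = 0.0692). Of 13 symbols for mitochondrially encoded subunits 0 matched a row of the count tables, and these were not analysed here. The mitochondrial part of each complex is therefore outside the values above.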

How the data were processed

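The authors deposited 1 table of whole-number counts per gene symbol for each of the 6 libraries, with no repeated symbol. The submitters' processing notes name Bowtie2 2.2.5 and build mm10 without a role. How tags were assigned to genes, and whether strand was used, is "not given in the sources used here", so 41 of 88 members that share runs of 30 bases near the 3' end with another GENCODE vM21 gene (repeats included), and 27 that overlap exons on the opposite strand, have uncertain values. The 27 were counted for overlap with any exon of the gene, also away from the 3' part that gives the tags.

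The test was that of edgeR 4.0.16 under R 4.3.3 (TMM factors, filterByExpr with minimum count 10 and minimum total 15, robust quasi-likelihood fit, group as the only term, two-sided, Benjamini-Hochberg over 10194 genes). CPM values use TMM-scaled library sizes, and the SE of a log2 fold change is its size over the square root of F. The method was tested on simulated data. It recovered 56.4% of 94 genes given a log2 change of 1 in size and 95.8% of 95 genes given 2, among 9889 genes. Of unchanged genes 0.0825% were called. The simulation changed a far smaller share of genes than the 30.2% called in these data, which makes its adjusted threshold stricter. The recovered and false shares therefore do not carry over to these data, where changes of 1 or less can still be missed. Pairs of libraries in a group differed by 4.52 to 8.13 times the chi-square that sampling gives, and each library was entered as 1 replicate. This spread cannot show whether the libraries come from separate mice or cultures, because technical steps can also add spread. Ctsd took 0.860% to 0.953% of counts in control and 6.53% to 6.81% in trSrebf1, so a fit without it was among the alternatives, with other scaling factors, filters, DESeq2 1.42.0, limma-voom 3.58.1, a replicate block and each library left out. Intervals and floors cover counting error or library spread only, and tags carry no molecular identifiers as far as the labels say.

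Named members were those past the threshold, the 2 with the highest mean CPM per complex, complex II, cytochromes c and c1 and sets of isoforms, and for the pathway lists up to 4 called genes. Other members were named after their values were seen. The members and lists were chosen with earlier results of these data known. Atp5c1-ps, a pseudogene symbol with no digit after its suffix, was left out. Protein sequences were not used here. The values of 1 tested member are not reported here, although it stayed in every fit and count.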

Additional observations from a re-analysis of the deposited data

How the results depend on the processing

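All 4 counts (genes higher and lower over all tested genes and among the members) were within 1.5 times their values under RLE, upper-quartile and total-count scaling, without Ctsd, with no low-count filter, with 5 CPM in 3 libraries, under DESeq2 and limma-voom and with the replicate block. Leaving out 1 library at a time gave 3 to 10 lower members and 2 to 4 higher members. The median log2 fold change of the members ran from -0.24 to -0.04 over the settings, with upper-quartile factors at -0.23, where the median over all genes was itself at -0.10. The summed level of complex II, 0.01 on the log2 scale, was -0.07 with upper-quartile factors. Without Sdhc it was 0.43, where only Sdha had a higher mean in trSrebf1. The summed level of complex III, -0.11, was 0.08 without Uqcrc1. With single libraries left out the sums ran from -0.31 to 0.01 for complex I (-0.13 with all libraries), from -0.02 to 0.05 for complex II, from -0.19 to -0.03 for complex III, from -0.27 to 0.15 for complex IV (-0.05 with all libraries) and from -0.45 to -0.31 for complex V. Sums without the largest member were chosen after seeing the data. No call of a named gene was reversed.

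Replicate numbers are shared by the groups, but same-numbered libraries did not deviate together (correlations 0.00525, -0.112 and -0.0538). The replicate block called 2 members higher and 6 lower, losing Cox6a2 and Atp5j, and 1646 genes higher and 1174 lower. The 95% interval reached past 1 in size for 23 of the 60 members that were not called, 22 of them under 50 CPM and 1, Ndufa2, above it, and 18 of 88 members had too few counts to be tested.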
